A study of Mus musculus with 9 samples.

Results

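The dystrophin complex and the muscle laminin-binding integrin were followed through 9 named genes in mouse heart: Dmd, Utrn, Dag1, Sgca, Sgcb, Sgcd, Dtna, Itga7 and Itgb1. The genes were taken by symbol, and all 9 were among the 15779 genes of the deposited tables, 7 of the dystrophin complex and 2 integrin subunits. All 9 passed the filter on low values in each comparison. Polyadenylated RNA had been sequenced from adult hearts of C57BL/6J mice, in 9 libraries that formed 3 groups of 3. The wild-type group received saline. The saline mutant group carried Mybpc3 R946X on both alleles, a premature stop codon in the gene of cardiac myosin-binding protein C, and received saline. The treated mutant group had the same genotype and received a treatment labelled high-dose-exABE8e. The series describes adenine base editors, SpRY-ABEmax and SpRY-ABE8e, delivered with the viral vector AAV9 for expression in cardiomyocytes; the labels do not define exABE8e further and give no dose, sex or age. Libraries are named below by group and replicate number. Nothing states whether the 3 libraries of a group came from separate animals, so p-values measure the spread between these libraries, which may be technical.

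Dystrophin, encoded by Dmd, is a long rod-shaped protein that ties cortical actin to a complex in the muscle cell membrane. Within that complex dystroglycan binds laminin outside the cell, the sarcoglycans brace dystroglycan, and dystrobrevins and syntrophins sit on the inner face. Integrin α7β1 is a second laminin receptor of striated muscle. Both systems gather at costameres, the lattice that couples the outermost myofibrils to the membrane, and loss of dystrophin or of δ-sarcoglycan is known to cause cardiomyopathy.

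The sequences upstream of Sgca and Sgcb are shown because these 2 sarcoglycan genes, whose products sit in 1 complex, had values on opposite sides of wild type in the saline mutants. They are RefSeq promoters on GRCm38.p6, the 250 bases before each gene's start in that set, on the gene's own strand (chr11:94976328-94976577, minus, for Sgca and chr5:73647738-73647987, minus, for Sgcb). GENCODE places the start of Sgcb at 73647790, so part of the Sgcb stretch lies inside that gene model. Capitals mark the E-box CANNTG, the core element bound by basic helix-loop-helix factors.
Sgca: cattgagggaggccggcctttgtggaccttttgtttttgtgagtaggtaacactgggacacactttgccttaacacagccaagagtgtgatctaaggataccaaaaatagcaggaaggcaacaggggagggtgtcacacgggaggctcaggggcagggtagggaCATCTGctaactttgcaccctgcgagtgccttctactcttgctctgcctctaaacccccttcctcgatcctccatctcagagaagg
Sgcb: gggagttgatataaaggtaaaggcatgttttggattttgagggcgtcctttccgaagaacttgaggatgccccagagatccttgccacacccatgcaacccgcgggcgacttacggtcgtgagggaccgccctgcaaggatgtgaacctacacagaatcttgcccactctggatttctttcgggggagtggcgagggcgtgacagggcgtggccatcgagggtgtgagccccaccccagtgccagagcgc
The Sgca stretch held 1 E-box, CATCTG, with its first base at position -86 counted from the start, and the Sgcb stretch held 0. An E-box stood in 66.2% of the 32851 promoters of the same length in that table, both strands being covered because the element reads the same on each. A promoter was present for 7 of the 9 members, Dtna and Itga7 being the exceptions here. Neither the MEF2 element CTANNNNTAG (3.2% of all promoters), the GATA element AGATAA (9.99%) nor the CArG box (1.47%), each searched on both strands, was found upstream of Sgca or Sgcb. Of these 3 elements, the members' promoters held only a CArG box, 98 bases before 1 of the 2 Dmd starts.

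The values are whole numbers that sum to between 999152 and 999382 in each library, so they behave as a rounded per-million quantity; neither unit nor sequencing depth is stated, and levels are compared only within a gene. Mybpc3 itself had values of 1510, 1795 and 2039 in wild type, 133, 142 and 186 in the mutants given saline, and 1024, 1374 and 1332 in those given the editor treatment. Its log2 fold change was -3.53 in saline mutants against wild type (adjusted p = 2.65e-05 by limma), 3.01 in treated against saline mutants (adjusted p = 0.000254) and -0.52 in treated mutants against wild type (adjusted p = 0.231). Mitochondrially encoded genes took 17.0% to 24.1% of each library. Xist, expressed from the inactive X chromosome, was present in 1 library of each group (wild type 1, saline mutant 3 and treated mutant 1) and at 0 in the other 6. Summed cardiomyocyte markers overlapped between the groups, at 53261 to 61919 in wild type, 54490 to 66266 in saline mutants and 58252 to 61092 in treated mutants, and summed skeletal muscle markers never exceeded 6. The cardiomyocyte sum covers differences in both directions. Of the 10 cardiomyocyte markers, none was called in saline mutants against wild type, but 5 did not overlap it, each with an unadjusted limma p under 0.05. Tnni3 (log2 fold change -0.50), Pln (-0.41) and Tnnt2 (-0.33) were lower, and Actn2 (0.36) and Actc1 (0.32) higher. Among all genes tested in that comparison, 21.6% did not overlap (12.8% higher and 8.78% lower) and 7.71% were called. Tnni3 and Tnnt2 were also lower in each saline mutant than in each treated library. Summed blood markers were 104 to 313 in wild type, 69 to 85 in saline mutants and 140 to 158 in treated mutants, with all 5 genes lower in saline mutants than in wild type and 2 of them called. Summed atrial myocyte markers were 716 to 767, 1413 to 2711 and 1079 to 1519 in the same order, with 3 of 5 called higher and 2 lower in saline mutants. The part of these differences in the values below was not tested. In bulk tissue, fewer cells of a type and less RNA per cell cannot be told apart.

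Sgca, which encodes α-sarcoglycan, fell in saline mutants. Its values were 86, 81 and 93 in wild type (86.7 ± 6.03, SD, n = 3), 69, 62 and 59 in saline mutants (63.3 ± 5.13, SD, n = 3) and, in treated mutants, 89, 90 and 82 (87.0 ± 4.36, SD, n = 3). Each saline mutant library lay below each of the other 6, while the wild-type and treated ranges overlapped. Sgca was 0.733-fold of wild type in saline mutants, a log2 fold change of -0.45 (SE 0.107, 95% interval -0.69 to -0.20) with an adjusted p of 0.0382 in limma with Benjamini-Hochberg adjustment over 13632 genes. This was 1 call among 9 members, beside 7.71% of all genes tested in that comparison (4.56% higher and 3.15% lower), so the share called is not set apart from the background. The adjusted p was 0.0951, 0.0624 and 0.166 without wild-type library 1, 2 or 3, and 0.160 and 0.112 without saline mutant library 2 or 3; without saline mutant library 1 it was 0.0414. Without the 1 library per group that holds Xist it was 0.142 (log2 fold change -0.40). Sgca lies on chromosome 11 (GRCm38, 94962791 to 94976327, minus strand), and Hils1 lies within it on the opposite strand, with values of 0 to 2 in every library.

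Treated mutants stood above saline mutants in Sgca by a log2 difference of 0.45 (SE 0.107, 95% interval 0.21 to 0.70). The unadjusted p of this gene was 0.00251 and its limma adjusted p was 0.297 over 13636 genes, in a comparison in which 0.0293% of all genes were called (0.0147% higher and 0.0147% lower). Against wild type the treated difference was 0.01 (95% interval -0.22 to 0.23, limma adjusted p = 1). Both treated comparisons reuse libraries of the first, so a low set of saline mutant values enters the fall and the later difference alike. In the authors' deposited tables Sgca had a log2 fold change of -0.52 in saline mutants against wild type (p = 0.0273) and 0.49 in treated against saline mutants (p = 0.0501).

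Neither of the other sarcoglycan members was called in any comparison. Sgcb, encoding β-sarcoglycan, had values of 144, 141 and 143 in wild type, 160, 168 and 181 in saline mutants and, in treated mutants, 166, 158 and 161. The 3 wild-type values lay below the other 6, and the 2 mutant groups overlapped. Its log2 fold change was 0.25 in saline mutants (95% interval 0.04 to 0.46, limma adjusted p = 0.170) and 0.18 in treated mutants (95% interval -0.01 to 0.37, limma adjusted p = 0.426), both against wild type. Sgcd, encoding δ-sarcoglycan, had low values of 7, 15 and 13 in wild type, 16, 15 and 13 in saline mutants and, in treated mutants, 11, 19 and 15. The groups overlapped, and its adjusted p values in limma were 0.479, 0.676 and 1 in saline mutants against wild type, treated mutants against wild type and treated against saline mutants.

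**Figure D1:**
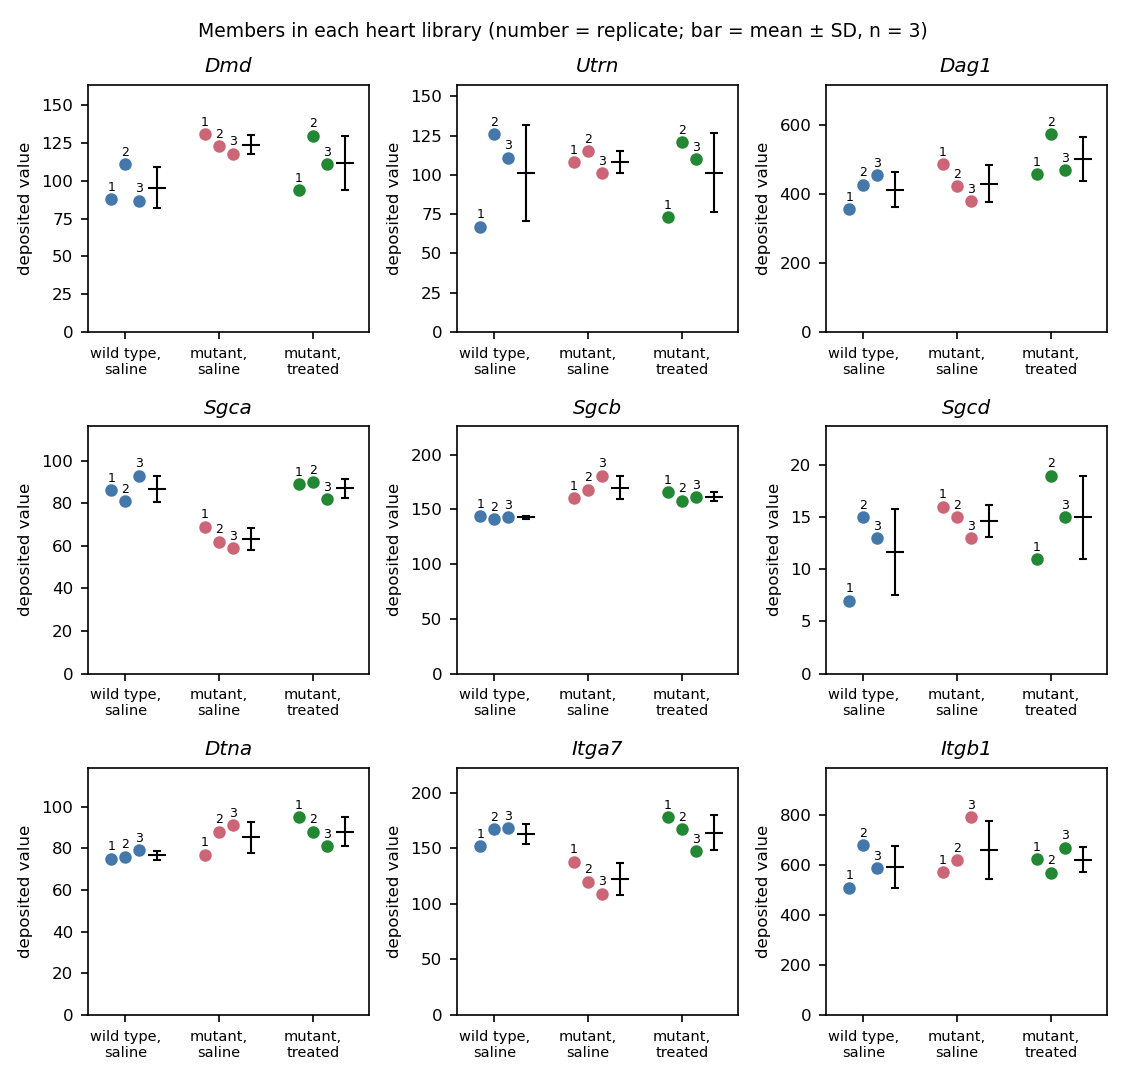
Deposited value (vertical axis, rounded per-million-like unit, from 0) of each member in each library, by group; points are the 3 libraries and the black marks the group means with SD. Sgca and Itga7 are lowest in the 3 saline mutant libraries, and Sgcb is lowest in the 3 wild-type libraries.

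Dmd had values of 88, 111 and 87 in wild type, 131, 123 and 118 in saline mutants and, in treated mutants, 94, 130 and 111. All 3 saline mutant values lay above all 3 wild-type values, and the treated values overlapped both groups. The log2 fold change in saline mutants against wild type was 0.38 (SE 0.119, 95% interval 0.11 to 0.66), with a limma adjusted p of 0.103. It was called without wild-type library 2 (adjusted p = 0.0449), and leaving out any other library gave an adjusted p from 0.161 to 0.332. Without the libraries that hold Xist it was 0.245. In treated mutants the difference was 0.22 against wild type (limma adjusted p = 0.603) and -0.16 against saline mutants (limma adjusted p = 0.793).

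Utrn encodes utrophin, the autosomal relative of dystrophin that can take its place in dystrophin-deficient muscle. Its values were 67, 126 and 111 in wild type, 108, 115 and 101 in saline mutants and, in treated mutants, 73, 121 and 110. The lowest 2 values came from wild-type library 1 and treated library 1, and the groups overlapped. Its log2 fold change in saline mutants against wild type was 0.14 (95% interval -0.34 to 0.62, limma adjusted p = 0.776), and -0.13 without wild-type library 1.

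The libraries with low Utrn also had low values for long transcripts as a class. Dmd and Utrn have longest GENCODE transcripts of 14910 and 12382 bases. Among 8786 genes averaging 10 or more, 600 have a longest transcript of at least 8000 bases. Log2 deviations were taken from each gene's median over the 9 libraries. The median deviation of the 600 genes, less that of all 8786, was -0.30 in wild-type library 1 and -0.28 in treated library 1. In the other 7 libraries it lay between 0 and 0.0995. Both low libraries hold Xist. Sgcd was also lowest in them, at 7 and 11, though its longest transcript of 4453 bases is below the limit of that class. Dmd was lowest in wild-type library 3, at 87, with 88 in wild-type library 1 and 94 in treated library 1. The part of this shift in the Dmd and Utrn values was not tested; without wild-type library 1, the Dmd log2 fold change in saline mutants was 0.33, against 0.38 with all libraries.

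**Figure D2:**
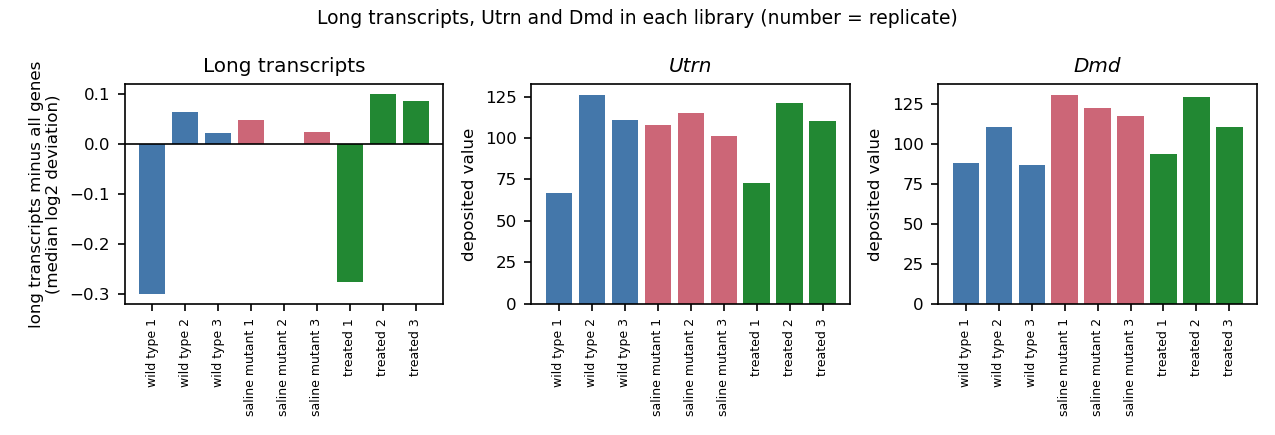
Median log2 deviation of the 600 long-transcript genes minus that of all genes (left, one bar per library), beside the deposited values of Utrn and Dmd in the same libraries (bars from 0). Wild-type library 1 and treated library 1 sit apart at -0.30 and -0.28, and Utrn is lowest in those libraries.

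Dag1 encodes dystroglycan, the laminin receptor at the centre of the complex. Its values were 356, 426 and 454 in wild type, 486, 422 and 379 in saline mutants and, in treated mutants, 457, 573 and 469. Treated mutants lay above wild type without overlap, by a log2 difference of 0.28 (95% interval -0.03 to 0.59, limma adjusted p = 0.456). The difference between saline mutants and wild type was 0.06 (95% interval -0.24 to 0.36, limma adjusted p = 0.867).

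Dtna encodes α-dystrobrevin, the dystrophin-related protein of the inner face. Its values were 75, 76 and 79 in wild type, 77, 88 and 91 in saline mutants and, in treated mutants, 95, 88 and 81. Treated values all exceeded wild type, by 0.19 on the log2 scale (95% interval -0.03 to 0.42, limma adjusted p = 0.477), and saline mutants overlapped wild type with a log2 difference of 0.15 (limma adjusted p = 0.482).

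Itga7 encodes the α7 subunit of the laminin-binding integrin. Its values were 152, 167 and 168 in wild type (162 ± 8.96, SD, n = 3), 138, 120 and 109 in saline mutants (122 ± 14.6, SD, n = 3) and, in treated mutants, 178, 167 and 147 (164 ± 15.7, SD, n = 3). As for Sgca, each saline mutant library lay below the other 6. The log2 fold change in saline mutants against wild type was -0.41 (SE 0.113, 95% interval -0.67 to -0.15), with a limma adjusted p of 0.0668, so Itga7 missed the threshold of 0.05. It passed without saline mutant library 1 (adjusted p = 0.0406), and leaving out any other library gave an adjusted p from 0.0967 to 0.223. Without the libraries that hold Xist it was 0.120. Treated mutants differed from saline mutants by 0.42 (SE 0.125, 95% interval 0.14 to 0.71), with an unadjusted p of 0.00868 and a limma adjusted p of 0.420, and from wild type by 0.01 (95% interval -0.23 to 0.26, limma adjusted p = 1). In the authors' deposited tables the Itga7 log2 fold changes were -0.47 (p = 0.0195) and 0.46 (p = 0.0359) for the first and second of these comparisons.

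Itgb1, encoding the β1 subunit that pairs with α7 and with many other α subunits in most cell types, had values of 510, 680 and 588 in wild type, 572, 620 and 793 in saline mutants and, in treated mutants, 625, 570 and 670. The 3 groups overlapped. Its log2 differences were 0.15 in saline mutants against wild type (95% interval -0.19 to 0.50, limma adjusted p = 0.656), 0.08 in treated mutants against wild type (limma adjusted p = 0.866) and -0.08 in treated against saline mutants (limma adjusted p = 0.905).

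Counted over the members, 4 of 9 had saline mutant values that did not overlap wild type, Dmd and Sgcb above and Sgca and Itga7 below, beside 21.6% of all genes tested (12.8% higher and 8.78% lower). Between treated and saline mutants, 2 of 9 did not overlap, Sgca and Itga7, both higher in the treated group, beside 9.82% of all genes (5.48% higher and 4.34% lower). Between treated mutants and wild type, 3 of 9 did not overlap, Dag1, Sgcb and Dtna, all higher in the treated group, beside 14.6% (9.13% higher and 5.43% lower). No member was called in treated mutants against wild type, where 0.989% of all genes were called (0.863% higher and 0.125% lower). The authors' shorter tables of selected genes, 689, 137 and 317 genes for the 3 comparisons, held none of the members; the smallest absolute log2 fold change in the authors' deposited tables of selected genes was 0.586.

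**Figure D3:**
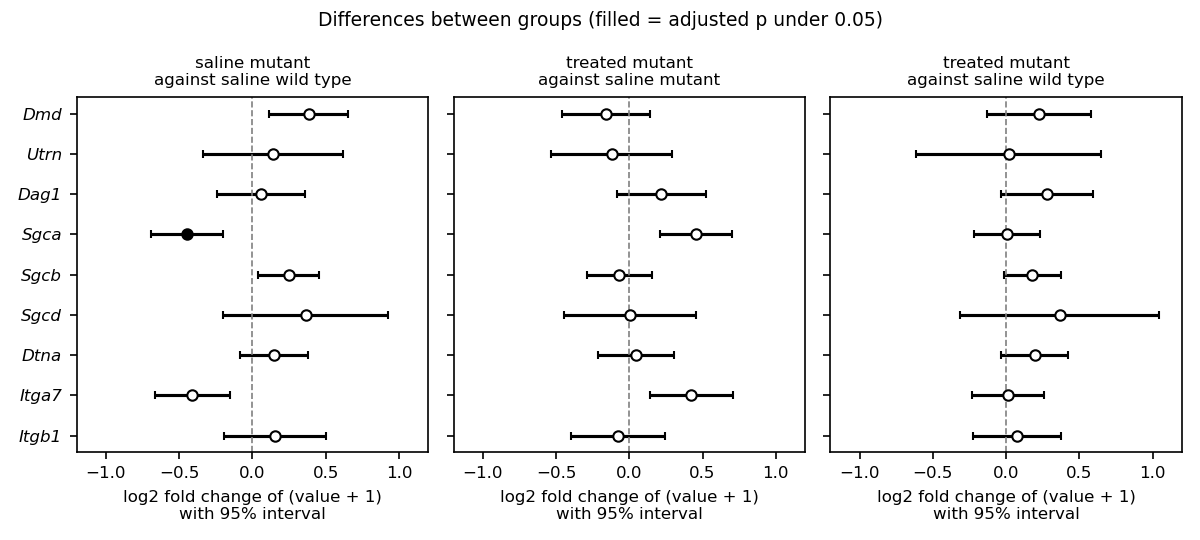
Log2 fold change of (value + 1) of each member with its 95% interval, unadjusted for the number of genes, in the 3 comparisons; the filled point marks an adjusted p under 0.05. Sgca in saline mutants against wild type, at -0.45, is the filled point.

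Ratios within a library do not depend on how libraries were scaled, and they are given as a description with no test. Sgca over Sgcb was 0.597, 0.574 and 0.650 in wild type (0.607 ± 0.0389, SD, n = 3), 0.431, 0.369 and 0.326 in saline mutants (0.375 ± 0.0529, SD, n = 3) and, in treated mutants, 0.536, 0.570 and 0.509 (0.538 ± 0.0302, SD, n = 3). The saline mutant ratios lay below the other 6. Their separation from wild type follows from Sgca being lower, and Sgcb higher, in every saline mutant library. The treated ratios lay below all 3 wild-type ratios, but narrowly, at 0.570 against 0.574, and the values behind them are rounded to whole numbers. Sgca over Dag1 was 0.242, 0.190 and 0.205 in wild type, 0.142, 0.147 and 0.156 in saline mutants and, in treated mutants, 0.195, 0.157 and 0.175. Again the saline mutant libraries were lowest, though the treated value of 0.157 came close to the highest of them.

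Itga7 over Itgb1 was 0.298, 0.246 and 0.286 in wild type, 0.241, 0.194 and 0.137 in saline mutants and, in treated mutants, 0.285, 0.293 and 0.219. Saline mutants lay below wild type but overlapped the treated group. Utrn over Dmd was 0.761, 1.14 and 1.28 in wild type, 0.824, 0.935 and 0.856 in saline mutants and, in treated mutants, 0.777, 0.931 and 0.991, and the groups overlapped. Because the scale per transcript length is not stated, these ratios compare libraries and do not say which gene is the more abundant.

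**Figure D4:**
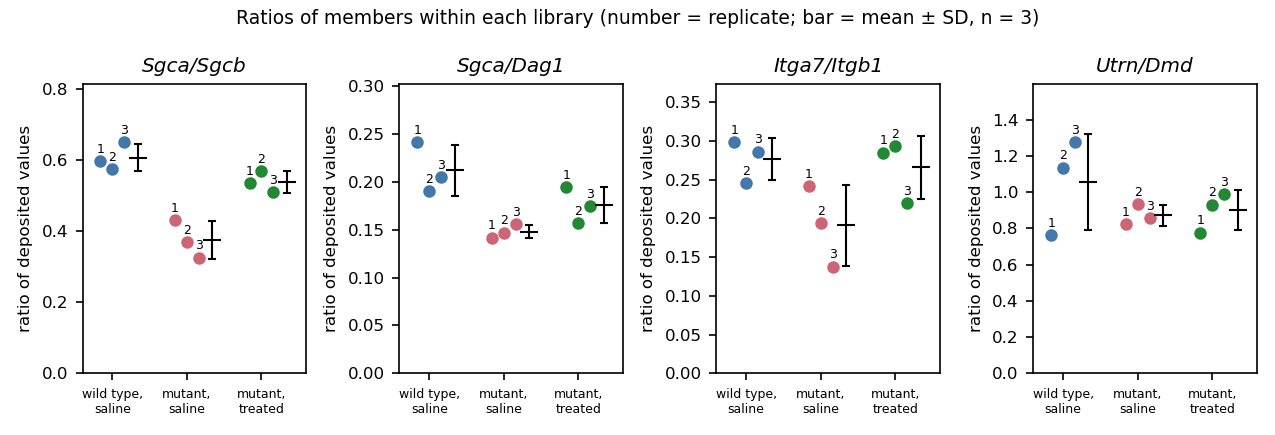
Ratio of deposited values within each library for the gene pairs described, by group, with group mean and SD. Sgca over Sgcb lies between 0.326 and 0.431 in saline mutants and between 0.509 and 0.650 in the other 6 libraries. The gap to wild type follows from Sgca being lower and Sgcb higher in every saline mutant library.

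The genes whose pattern over the 9 libraries was most like that of Sgca were ranked by the root mean square difference of log2(value + 1) after centring each gene, over 4980 genes averaging 30 or more. Nipsnap2, encoding a mitochondrial protein, was nearest (0.0730), followed by Itga7 (0.0748) and Gnpat, an enzyme of ether lipid synthesis (0.0785), where the median over all these genes was 0.302. Nipsnap2 had values of 816, 754 and 839 in wild type, 655, 592 and 523 in saline mutants and, in treated mutants, 779, 726 and 721. Gnpat had 298, 305 and 322, then 251, 248 and 220, then 305, 301 and 279 in the same order. Both genes, like Sgca, were lowest in the 3 saline mutant libraries, which follows from ranking genes by likeness to Sgca over these same libraries.

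Other genes of the pathway were read from 6 lists, by the same limma fits. In saline mutants against wild type, the median log2 fold change of all genes was 0.07, and 7.71% of all genes tested were called (4.56% higher and 3.15% lower). Of 9 tested genes of the remaining dystrophin complex (median 0.05), 1 was called higher and none lower. The called gene was Sntb1, encoding β1-syntrophin, a scaffold for signalling proteins. It went from 9, 14 and 11 to 22, 24 and 25 (log2 fold change 1.02, limma adjusted p = 0.00715), with 6, 10 and 19 in treated mutants. It was not called in a fit of all 9 libraries (adjusted p = 0.0844). Of 16 genes for dystroglycan glycosylation, which builds the sugar chain that binds laminin, none passed the test (median 0.03, 1 gene at an unadjusted p under 0.05). Pomgnt2, encoding an enzyme of that chain, had a log2 fold change of -0.26 (limma adjusted p = 0.332).

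Of 16 genes for basement membrane ligands (median 0.27), 1 was called lower and none higher. The log2 fold change was above 0 in 13 of them and below 0 in 3, with 7 genes at an unadjusted p under 0.05 in limma. Lama5, encoding the laminin α5 chain, had 69, 130 and 124 in wild type, 59, 45 and 50 in saline mutants and, in treated mutants, 74, 151 and 91 (log2 fold change -1.01 in saline mutants, limma adjusted p = 0.0320). Its call was lost without wild-type library 2 (0.0760) or 3 (0.107) and without saline mutant library 2 (0.127) or 3 (0.101), all adjusted p. Summed smooth muscle and pericyte markers were 1235 to 1509 in wild type, 980 to 1248 in saline mutants and 1035 to 1192 in treated mutants. Of their 7 tested markers, 4 were lower and 3 higher in saline mutants, with 1 called, lower. Summed endothelial markers were 989 to 1366, 918 to 1078 and 941 to 1071 (0 of 8 called). Their part in the Lama5 values was not tested.

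Among 15 other integrin subunits (median 0.30), 2 were called higher in saline mutants and none lower. Itga5, the α subunit of the main fibronectin receptor, went from 63, 80 and 60 to 134, 115 and 127 (log2 fold change 0.89, limma adjusted p = 0.00421). Itga9, whose integrin binds tenascin-C and osteopontin, went from 82, 143 and 118 to 186, 221 and 189 (log2 fold change 0.82, limma adjusted p = 0.0320). The Itga9 call was lost without wild-type library 3 (adjusted p = 0.0699) and without saline mutant library 2 (0.132) or 3 (0.0820), and without the libraries that hold Xist (0.0564). Summed fibroblast markers were 1720 to 2477 in wild type, 2716 to 4349 in saline mutants and 2019 to 2764 in treated mutants, with 2 of 8 markers called higher in saline mutants. Summed macrophage markers were 290 to 399, 325 to 628 and 288 to 408, with 0 of 8 called. The part of either cell type in the integrin values was not tested.

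Of 21 genes for integrin adhesion and costamere linkers (median 0.19), 4 were called higher and none lower, with 16 log2 fold changes above 0 and 5 below. Flnc, the muscle filamin that crosslinks actin and binds sarcoglycans, went from 194, 274 and 267 to 931, 596 and 471 (log2 fold change 1.40, limma adjusted p = 0.00878), and its adjusted p was 0.0524 without wild-type library 1 and 0.0631 under limma's trend alone. Nrap, an actin-binding protein of intercalated discs, went from 463, 660 and 710 to 1470, 1089 and 1080 (log2 fold change 0.997, limma adjusted p = 0.0131), with an adjusted p of 0.0670 under limma's trend alone. Ptk2b, the adhesion kinase PYK2, went from 7, 8 and 10 to 23, 24 and 26 (log2 fold change 1.45, limma adjusted p = 0.000919). Zyx, encoding the focal adhesion protein zyxin, went from 60, 71 and 54 to 82, 95 and 107 (log2 fold change 0.61, limma adjusted p = 0.0320), and lost its call without wild-type library 1 (adjusted p = 0.113) or 3 (0.121) or saline mutant library 2 (0.125) or 3 (0.103), or the libraries that hold Xist (0.168). In all 4 genes the saline mutant values lay above wild type without overlap. Itgb1bp2, encoding melusin, a muscle protein that binds the β1 tail, had 161, 166 and 155 in wild type and 144, 156 and 141 in saline mutants, and was not called.

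Of 20 genes for the submembrane cytoskeleton and membrane repair (median 0.32), 4 were called higher and none lower, with 15 log2 fold changes above 0 and 5 below. Des, encoding the muscle intermediate filament desmin, went from 1772, 1720 and 1941 to 2605, 2728 and 2682 (log2 fold change 0.56, limma adjusted p = 0.0137), and lost its call without wild-type library 2 (adjusted p = 0.0666) or saline mutant library 2 (0.0912). It was also not called when libraries were rescaled by median-of-ratios (adjusted p = 0.139) or upper-quartile (0.110) factors. The keratin pair Krt8 and Krt18 was near 0 in wild type. Wild-type libraries all listed Krt8 at 0, and the saline mutants had 6, 8 and 8 (limma adjusted p = 0.000113), and Krt18 went from 1 in each to 6, 6 and 10 (limma adjusted p = 0.00104). Ankrd2, a titin-associated protein that responds to stretch, had 0 throughout wild type and then 5, 3 and 5 (limma adjusted p = 0.000618). Rounding to whole numbers limits these low values.

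None of the genes tested in the 6 lists was called in treated against saline mutants, where 4 genes were called in all. The smallest adjusted p values in the lists were 0.421 for Sntb1 (log2 fold change -1.09), 0.584 for Pomgnt2 (0.33), 0.323 for Lama5 (0.97), 0.561 for Itga8 (-0.55), 0.683 for Ptk2b (-0.23) and 0.351 for Krt8, by limma. Lists held 1 to 3 genes at an unadjusted p under 0.05, apart from the adhesion linkers with 0. In treated mutants against wild type, 0.989% of all genes were called (0.863% higher and 0.125% lower). The lists gave 6 calls there, all higher in the treated group. These were Itga5 with 147, 137 and 108 (log2 fold change 0.94, limma adjusted p = 0.0487), Ptk2b with 21, 23 and 18 (1.22, 0.0260), Flnc with 617, 684 and 505 (1.30, 0.0260), Krt8 with 5, 2 and 3 (0.0260), Krt18 with 5, 8 and 4 (1.69, 0.0268) and Ankrd2 with 2 in each library (0.0268). Each of the 6 lost its call when any 1 wild-type library was left out, with limma adjusted p between 0.0638 and 0.170, and none kept it without the libraries that hold Xist (0.114 to 0.287). The comparisons with wild type share those libraries, so the values stand side by side and their overlap is not counted as a result.

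**Figure D5:**
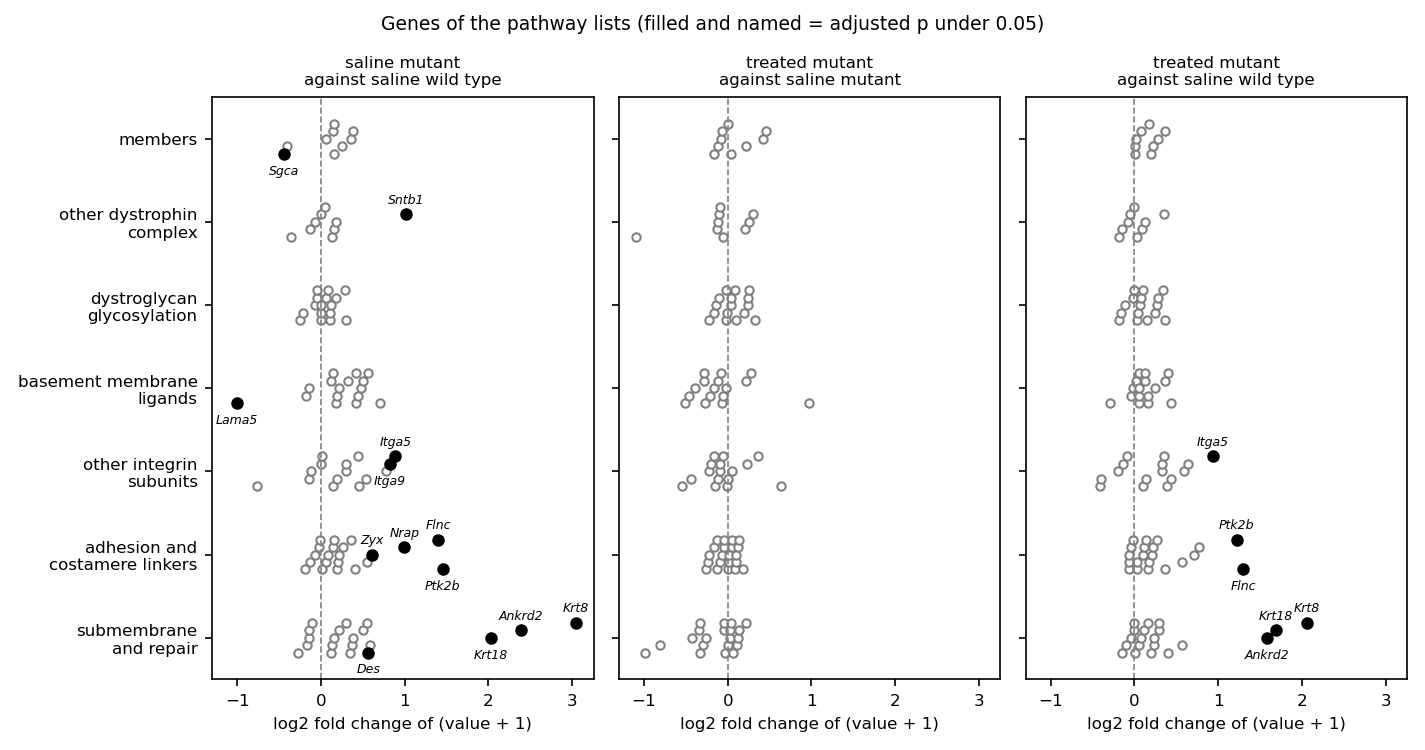
Log2 fold change of (value + 1) for each tested gene of the members and of the 6 pathway lists (rows) in the 3 comparisons (panels); filled, named points have an adjusted p under 0.05. In saline mutants against wild type 12 list genes are filled, Lama5 below 0 and the others above; none is filled in treated against saline mutants.

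In saline mutants against wild type, the 7 dystrophin complex members had a median log2 fold change of 0.15 with 6 above 0 and Sgca below, and in treated mutants against wild type their median was 0.19 with all 7 above 0 and none called. The signs of Sgca and Utrn there were not stable: each kept it in 11 of 18 alternatives, and the authors' deposited table has -0.01 for Sgca and -0.02 for Utrn. The matching medians of all genes were 0.07 and 0.01. Calls over all genes numbered 622 higher and 429 lower in saline mutants against wild type, a split that became 623 and 673 with upper-quartile factors. They numbered 117 and 17 in treated mutants against wild type, which became 123 and 48 with those factors and 39 and 38 under limma's trend alone.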

How the data were processed

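Per the labels' protocols, polyadenylated RNA from frozen heart tissue was sequenced, and the submitters' processing notes name HISAT2, HTSeq, DESeq2 and the build mm10, with no versions or roles. The authors deposited 1 table per pair of groups. Its values per gene and library are whole numbers with nearly equal totals, and no header or label names their unit, so the values as deposited by the authors were treated as a score, scaled by them to about the same total in each library; depth is unknown and no counting error could be given. The authors' deposited log2 fold changes and standard errors are quoted only where named. The deposited p-value column headed as adjusted equals the unadjusted normal p-value of fold change over standard error, and is quoted as such.

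For every pair of groups a separate limma model (version 3.58.1, R 4.3.3) was fitted to log2(value + 1), keeping genes whose mean across the 6 libraries was 1 or more. Residual variances were raised to at least the variance that rounding gives (1/12 on the value scale), a trend was fitted, and prior degrees of freedom came from genes averaging 30 or more. A call is a Benjamini-Hochberg adjusted p under 0.05 over all genes tested. Fold changes on this scale understate those of low genes, and intervals are not adjusted for the number of genes. The scripts were tested on simulated data. The 9 members, the 6 pathway lists and the marker lists were chosen with earlier results of these data known. The text names the members, the called genes of each list, the 2 genes of smallest p where a list had no call, the 3 genes nearest to Sgca, and a few further list genes. Itgb1bp2 and the variants of named list genes were added after their values were seen. Genes of the lists that the tables do not hold were not analysed here, and some list genes are not reported here. Alternatives changed the scaling, the pseudocount, the filter, the variance step and the libraries used. Positions are from GENCODE M21 (GRCm38) and promoters from RefSeq (GRCm38.p6).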

Additional observations from a re-analysis of the deposited data

How the results depend on the processing

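Of the 27 member results, 24 kept their call, or lack of one, under every alternative run, the exceptions being Sgca, Itga7 and Dmd in saline mutants against wild type. Sgca kept its call in 11 of 18 alternatives, with adjusted p from 0.0200 to 0.166 and log2 fold change from -0.54 to -0.40. The number of members called there, 1, became 2 with upper-quartile factors, with totals without mitochondrially encoded genes and with prior degrees of freedom from all genes. It became 0 without the libraries that hold Xist and 0 to 2 when 1 library was left out. Over all genes, 1051 calls became 580 without the Xist libraries and 528 to 1037 when 1 library was left out. In treated against saline mutants, 4 calls became 10 under median-of-ratios and 10 under upper-quartile factors, 7 with a pseudocount of 4, 2 without the filter, 32 with the trend alone, 14 with prior degrees of freedom from all genes, 13 in a fit of all 9 libraries, 2 without the Xist libraries and 2 to 8 when 1 library was left out. In treated mutants against wild type, 134 calls became 77, 243 and 239 under the trend alone, the prior from all genes and the fit of all 9 libraries, 9 without the Xist libraries, and 1 to 139 when 1 library was left out. Fits without libraries held fewer samples, and their counts also varied with the library left out. The cause of the changed counts was not tested for any alternative.

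Same-numbered libraries did not deviate together in every pair of groups (correlations -0.277, -0.0350 and -0.417 for saline mutants and wild type, -0.0796, 0.196 and 0.0975 for treated and saline mutants, 0.621, 0.181 and 0.0313 for treated mutants and wild type, over 4981 genes). Wild-type library 1 and treated library 1 did, at 0.621, but not every correlation exceeded 0.1 in any pair of groups, so the numbers were not taken as pairs. Libraries correlated best with their own number in 0, 2 and 1 of 3 cases. With the replicate block, calls over all genes were 824, 35 and 35, and 0 members were called, Sgca having an adjusted p of 0.103. The text names genes at low values, where rounding sets the precision, and 3 libraries per group limit all of it.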
